A study of Mus musculus with 6 samples.

Results

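The genes described here encode splicing factors of 5 families, the proteins that cut introns out of pre-messenger RNA. They were chosen by symbol: Srsf, Hnrnp, Sf3a or Sf3b, Snrp and Prpf names with their usual suffixes. Of the 24594 genes in the count table, 65 carried such a symbol, and the 62 with at least 10 counts in at least 3 of the 6 libraries are reported, made up of 10 Srsf, 20 Hnrnp, 9 Sf3, 10 Snrp and 13 Prpf genes. The 3 left out were Srsf12, Snrpf and Snrpn. Srsf12 held 4, 1 and 0 counts in the control and 2, 2 and 0 in the doxycycline libraries. Snrpf held 14, 9 and 0 and 3, 7 and 0. Of those reported, Snrpg lay nearest the limit, with 35, 16 and 14 counts in the control and 4, 2 and 6 in the doxycycline libraries, and it was the 1 gene that passed only through the control libraries. The other 61 held 10 or more counts in all 6 libraries.

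The samples were epithelial organoids, closed structures grown in a gel, from crypts of the proximal small intestine of adult mice, 1 individual for each sample per the labels' protocols. All samples, controls included, carried the genotype TetON-hYAP/H2B-mCherry, in which doxycycline turns on human YAP together with a histone tagged in red. YAP drives transcription when Hippo signalling is low, and the design text of the series names the transgene as the S127A mutant, which is constitutively active. The doxycycline group (3 libraries) had 1 µg/ml of the drug for 48 h from passaging, the control group (3 libraries) had none, and all grew with EGF, Noggin and R-spondin1. Doxycycline was never given to organoids lacking the transgene, so drug and YAP cannot be told apart. The cell type or promoter that drives the doxycycline-dependent activator and the age of the mice are not given in the labels.

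Splicing is carried out by the spliceosome, which is built on each intron from small nuclear ribonucleoproteins (snRNPs), each an RNA bound by proteins. U1 binds the start of the intron and U2 its branch point. The tri-snRNP of U4, U6 and U5 then joins, and the assembly is rearranged into the active enzyme. SR proteins and hnRNPs bind the pre-messenger RNA itself and sway which sites are used, often in opposite directions. Genes of the core machinery are expressed in nearly all cell types, the intestinal epithelium included.

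The libraries held 8533452 to 16803062 counts. The splicing factor genes took 1.12 to 1.31% of the counts of a control library and 0.560 to 0.604% of a doxycycline library. Control replicate 3, the shallowest library, stood apart. In it 8 of the 62 genes were over 2-fold above the mean of the other control libraries and 4 were over 2-fold below. The median SD of log2 CPM (counts-per-million, on TMM-scaled library sizes) of the 62 genes was 0.36 in the control and 0.11 in the doxycycline group, beside 0.40 and 0.14 over all genes tested. Across the 62 genes, the deviation of control replicate 3 from the other controls went with transcript length at a Spearman rho of -0.27, and across 12741 genes at -0.45, which are descriptions of 1 library. For the splicing factor genes named here, fold changes without that library are therefore given beside those that it moves by over 1.5 times or whose call it changes. The fit without it rests on control replicates 1 and 2 only, and in it 35.1% of all genes fell and 34.9% rose. The summed level of 8 markers of intestinal epithelium was 4619 to 5273 CPM in the control and 17879 to 19065 CPM in the doxycycline libraries, with Cdh1, Krt8, Krt18, Krt19 and Vil1 risen and Cdx1 fallen. The calls of Cdh1 and Vil1 were lost with total counts as the scaling (adjusted p = 0.266 and 0.0577), that of Cdh1 also without any 1 doxycycline library and that of Vil1 without doxycycline replicate 1 or 2. Markers of mesenchyme summed to at most 1.01 CPM in any library, with Col1a1, Dcn and Lum at 0. Immune markers summed to 6.31 to 8.95 CPM in the control and 26.2 to 28.9 CPM in the doxycycline libraries, with 1 of 3 tested risen (Laptm5). Endothelial markers summed to 0.877 to 1.41 and 1.42 to 2.40 CPM with Kdr at 0 and the 1 tested, Tek, risen (log2 fold change 1.75, edgeR adjusted p = 0.0154), a call lost without 4 of the 6 libraries in turn. Markers of neurons and glia summed to 6.32 to 10.5 and 1.55 to 2.63 CPM with Sox10 at 0 and 1 of 3 tested fallen (Tubb3, log2 fold change -4.25, edgeR adjusted p = 0.0111). The part of these cells in the results was not tested.

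With doxycycline, 31 of the 62 splicing factor genes fell and none rose. The test was edgeR's quasi-likelihood test on the counts, with Benjamini-Hochberg adjusted p under 0.05 over all 12909 genes tested. By the same test 23.6% of all genes fell and 21.7% rose. The median log2 fold change was -0.80 for the splicing factor genes and -0.08 for all genes tested. Fold changes ran from -2.17 (Snrpg) to 0.51, and 55 of the 62 were below 0, against 53.4% of all genes tested. Snrpg passed the count rule only through the control libraries, which favours a fall, and the next lowest value was -2.07 (Prpf31). Snrpg is also among these 55 genes and among the 45 without overlap that follow. In 45 of the 62 genes every doxycycline library lay below every control library, which held for 31.3% of all genes, and in none did every doxycycline library lie above, which held for 30% of all genes. Their summed level was 11192, 11219 and 9591 CPM in the controls and 6872, 6733 and 6651 CPM in the doxycycline libraries. Every control sum lay above every doxycycline sum. At an unadjusted p under 0.05 none of the 62 was higher by edgeR, and by DESeq2 none rose, against 25.3% of all genes.

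**Figure D1:**
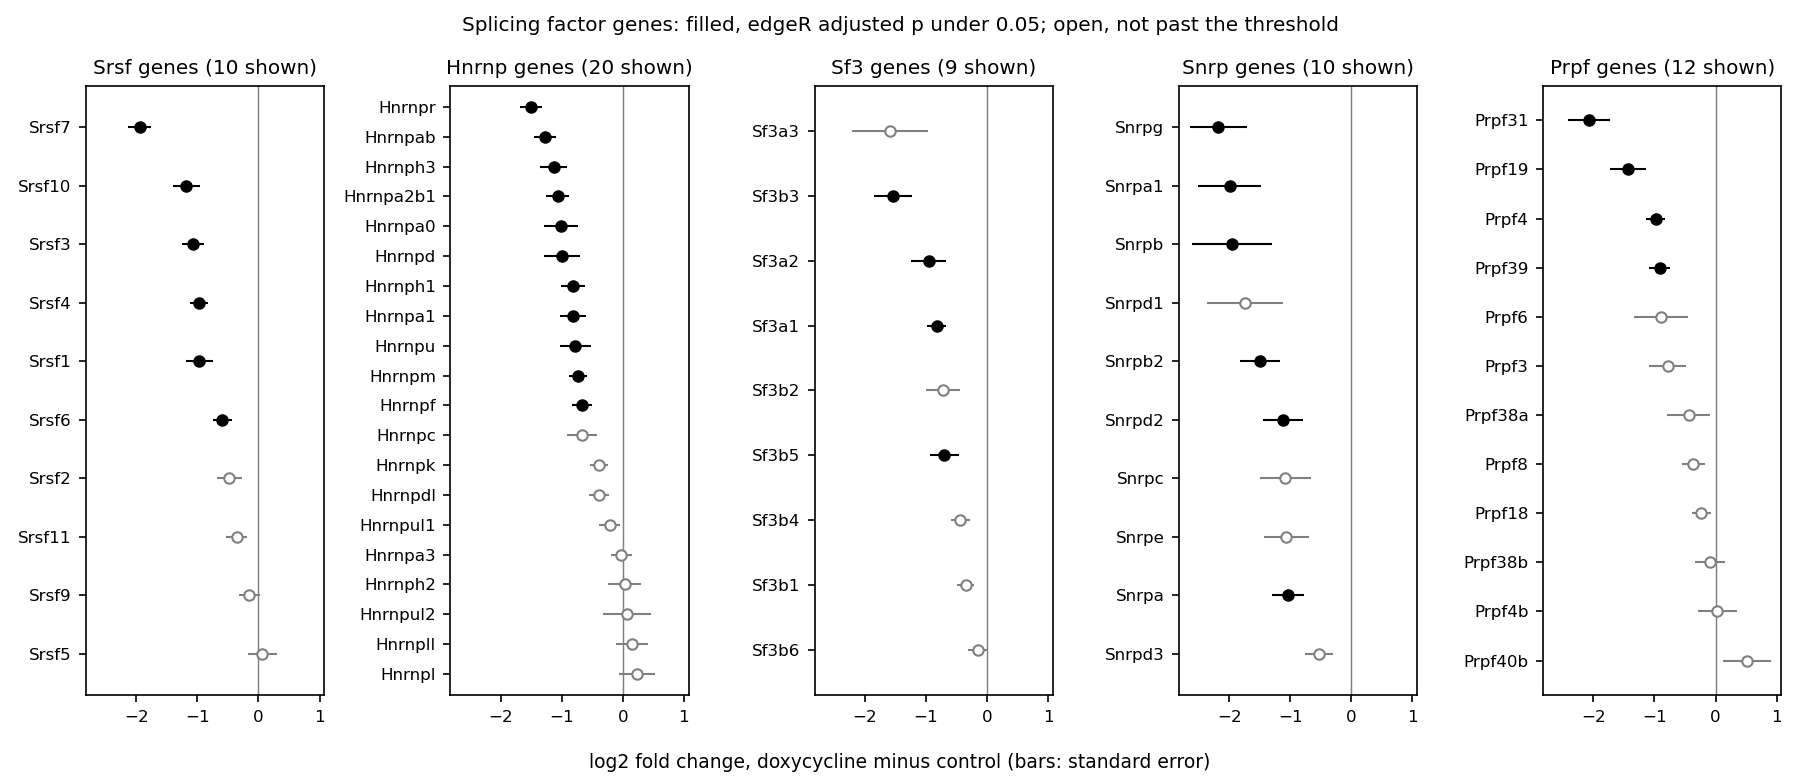
Log2 fold change of 61 of the 62 splicing factor genes, doxycycline against control, by family, with standard errors from edgeR; filled points passed the threshold and open points did not. The 31 genes past the threshold all lie below 0.

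Without control replicate 3, 50 genes fell, against 35.1% of all genes, and 1 rose, Prpf40b, against 34.9%. The 31 called with all libraries were among the 50, and the median was -0.64. Leaving out doxycycline replicate 1, 2 or 3 left 22, 17 and 15 fallen, against 15.7, 14.3 and 14.3% of all genes. Leaving out control replicate 1 or 2 left 27 in each case, against 20.5 and 19.9%. Of the 31 calls, 15 held in every one of 14 alternative fits, and the other 16 were lost in at least 1. Without Snrpg, which the count rule admitted through its control libraries alone, 30 of 61 fell and 14 calls held in every fit. With total counts as the only scaling, 52 fell, against 39.7% of all genes (13.5% rose), and the median of all genes tested moved to -0.52 and that of the splicing factor genes to -1.24. The distance between the medians was -0.72 on both scales. A change of scaling shifts the fold changes of all genes by about the same amount, so this distance could hardly change. The number of fallen splicing factor genes and the share of all genes that fell were 30 and 23% with RLE factors, 30 and 16.9% with no filter, and 31 and 23.5% with a filter of 10 counts in 3 libraries. They were 40 and 26.8% with DESeq2, 30 and 22.8% with limma-voom, 32 and 25.3% with a length trend removed, and 17 and 13.1% at a threshold of 0.01. With the replicate number as a block, 17.4% of all genes fell.

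**Figure D2:**
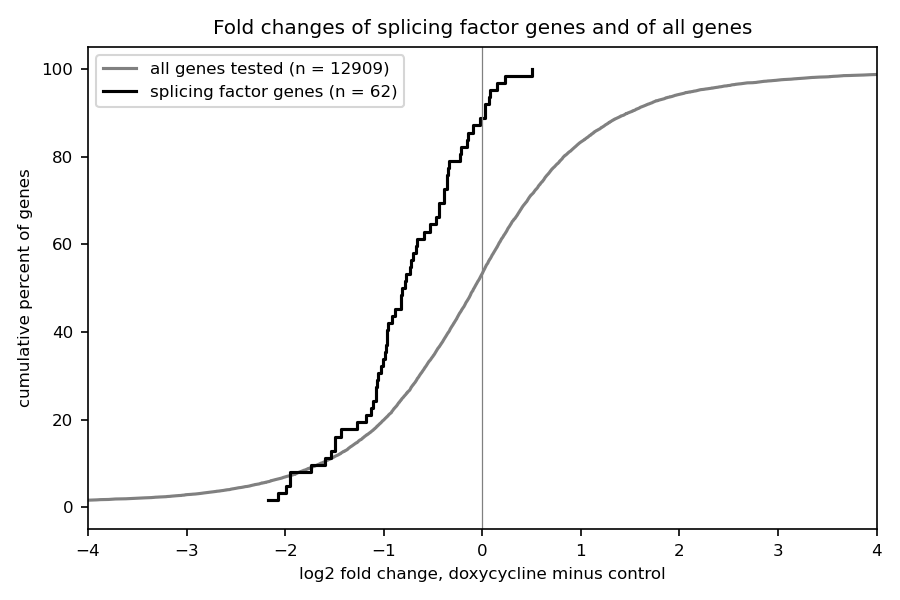
Cumulative percent of genes (vertical axis) by log2 fold change, doxycycline against control (horizontal axis, drawn from -4 to 4), for the splicing factor genes and for all 12909 genes tested. The medians lie at -0.80 and -0.08.

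**Figure D3:**
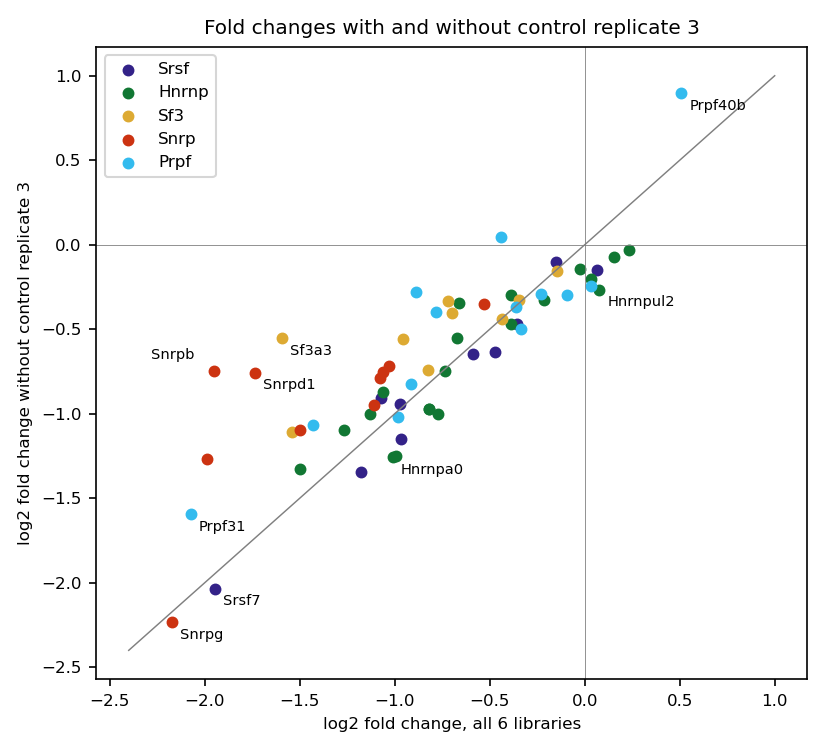
Log2 fold change of each splicing factor gene with all libraries (horizontal axis) and without control replicate 3 (vertical axis), coloured by family, with the line of equal values. Genes off the diagonal, Snrpb (-1.95 and -0.75) among them, rest in part on that library.

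Promoter sequence is shown for 5 genes that fell, 1 from each family. It is also shown for Srsf5, an SR protein gene, as 1 example of those that did not pass the test. Each window runs from 250 bases before to 50 after a RefSeq start (GRCm38.p6), 5′ to 3′ on the gene's strand. Capitals mark any match on either strand to 8 motifs: the E-box CACGTG, ETS ACTTCCGG, the CCAAT box, the GC box GGGCGG, the TATA box TATAAA, TEAD GGAATG, AP-1 TGANTCA and CRE TGACGTCA. A match is a description of letters, not of a bound site. The windows lie at chr17:80207256-80207555, minus strand (Srsf7), chr4:136310692-136310991, plus strand (Hnrnpr), chr7:66060086-66060385, plus strand (Snrpa1), chr8:110846754-110847053, minus strand (Sf3b3), chr7:3629735-3630034, plus strand (Prpf31) and chr12:80945249-80945548, plus strand (Srsf5). Hnrnpr has another RefSeq start, and its window there (chr4:136311348-136311647, plus strand), not shown, matches the GC box alone.
Srsf7: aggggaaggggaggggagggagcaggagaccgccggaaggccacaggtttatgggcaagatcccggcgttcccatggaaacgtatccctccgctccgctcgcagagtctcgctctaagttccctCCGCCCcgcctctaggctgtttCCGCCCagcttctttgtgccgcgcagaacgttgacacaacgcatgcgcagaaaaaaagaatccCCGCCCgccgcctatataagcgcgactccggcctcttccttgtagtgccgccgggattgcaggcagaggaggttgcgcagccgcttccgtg
Hnrnpr: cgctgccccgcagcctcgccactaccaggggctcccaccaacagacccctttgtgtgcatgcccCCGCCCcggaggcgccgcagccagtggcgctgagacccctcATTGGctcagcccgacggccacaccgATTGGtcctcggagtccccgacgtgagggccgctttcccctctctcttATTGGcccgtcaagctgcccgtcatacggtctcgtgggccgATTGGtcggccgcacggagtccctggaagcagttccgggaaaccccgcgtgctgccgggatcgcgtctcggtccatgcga
Snrpa1: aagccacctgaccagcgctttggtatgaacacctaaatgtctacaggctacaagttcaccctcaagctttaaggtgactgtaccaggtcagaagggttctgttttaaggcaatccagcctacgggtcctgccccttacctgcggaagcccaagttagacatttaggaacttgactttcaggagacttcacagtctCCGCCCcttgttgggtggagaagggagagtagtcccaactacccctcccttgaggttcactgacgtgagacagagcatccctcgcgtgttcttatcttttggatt
Sf3b3: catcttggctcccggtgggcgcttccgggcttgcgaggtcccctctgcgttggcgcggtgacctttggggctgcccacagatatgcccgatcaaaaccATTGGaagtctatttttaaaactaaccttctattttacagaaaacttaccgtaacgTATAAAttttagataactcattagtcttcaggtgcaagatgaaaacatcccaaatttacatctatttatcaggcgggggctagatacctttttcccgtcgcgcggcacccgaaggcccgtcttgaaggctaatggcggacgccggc
Prpf31: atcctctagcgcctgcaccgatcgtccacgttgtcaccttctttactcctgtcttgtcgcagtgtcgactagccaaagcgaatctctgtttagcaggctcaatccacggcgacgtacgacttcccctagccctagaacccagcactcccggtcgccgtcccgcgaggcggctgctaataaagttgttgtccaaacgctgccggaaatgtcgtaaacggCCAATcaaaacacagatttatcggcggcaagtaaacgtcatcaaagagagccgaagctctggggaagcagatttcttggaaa
Srsf5: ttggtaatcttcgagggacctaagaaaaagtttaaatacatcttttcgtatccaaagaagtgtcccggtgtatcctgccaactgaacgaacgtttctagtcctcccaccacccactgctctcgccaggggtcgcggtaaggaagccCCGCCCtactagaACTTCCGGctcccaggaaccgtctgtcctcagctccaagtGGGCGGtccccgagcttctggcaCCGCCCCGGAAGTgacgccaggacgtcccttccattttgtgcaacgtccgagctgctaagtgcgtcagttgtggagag
Of the 62 genes, 54 had a window in the table, 71 windows in all. Shares are of windows, and overlapping windows of the same gene count separately, such as those of Sf3b2 and of Srsf4 that share an ETS match. TEAD proteins are the DNA-binding partners of YAP, and their motif GGAATG was in 7.04% of the 71 windows and in 12.5% of the windows of all genes tested. The ETS motif was in 18.3% of the windows against 7.92%, in 11.9% of those of the genes that fell and in 27.6% of those of the genes that did not pass the test. The CCAAT box was in 47.9% against 37.9% and the GC box in 67.6% against 61.4%. Median GC content was 60.3% for these windows and 60.7% for those of all genes tested.

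SR proteins carry RNA-binding domains and an arginine- and serine-rich tail, and they mostly favour the use of nearby exons. Of the 10 Srsf genes, 6 fell (Srsf7, Srsf10, Srsf3, Srsf4, Srsf1 and Srsf6), beside 23.6% of all genes tested. The family median was -0.78. Srsf7 (chromosome 17, 80200080 to 80207369) stood at 106, 102 and 84.3 CPM in the controls and 27.8, 27.5 and 20.6 CPM in the doxycycline libraries (log2 fold change -1.95, SE 0.191, edgeR adjusted p = 3.80e-04). The highest treated library lay far below the lowest control. Srsf3, which also acts in the export of messenger RNA, stood at 308, 303 and 409 CPM in the control and 171, 154 and 160.3 CPM in the doxycycline libraries (log2 fold change -1.07, SE 0.179, edgeR adjusted p = 0.00305). Srsf10 stood at 174, 163 and 110.1 CPM in the control and 76.5, 60.9 and 60.1 CPM in the doxycycline libraries (log2 fold change -1.18, SE 0.222, edgeR adjusted p = 0.00533), and here control replicate 3 was the lowest of the controls. Srsf4 stood at 140.4, 138 and 145 CPM in the control and 75.9, 74.6 and 65.2 CPM in the doxycycline libraries (log2 fold change -0.97, SE 0.146, edgeR adjusted p = 0.00198), and its control libraries lay close together.

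Srsf1 and Srsf6 are described here after their values were seen. Srsf1, an SR protein with a long-known role in choosing 5′ splice sites, stood at 699, 705 and 433 CPM in the control and 332, 300.4 and 308 CPM in the doxycycline libraries (log2 fold change -0.97, SE 0.222, edgeR adjusted p = 0.0119). Its call was lost without doxycycline replicate 2 or 3 (adjusted p 0.058 to 0.0598). Srsf6 went from 435 ± 37.6 to 289 ± 19.6 CPM (log2 fold change -0.59, SE 0.154, edgeR adjusted p = 0.0185), and its call was lost without any 1 library other than control replicate 3 (adjusted p 0.0582 to 0.0995). Per kilobase of transcript, Srsf2 had the highest level of the family, 364 ± 80.3 and 262 ± 13.8 CPM per kb in the control and doxycycline groups (SD, n = 3). Its libraries stood at 768, 789 and 515 CPM in the control and 527, 478 and 486 CPM in the doxycycline libraries, so that control replicate 3 overlapped the treated range (log2 fold change -0.47, edgeR adjusted p = 0.0968). Srsf5 stood at 365, 344 and 200.2 CPM in the control and 327, 309 and 313 CPM in the doxycycline libraries (log2 fold change 0.06, adjusted p = 0.851) and passed the threshold in no fit. Srsf9 and Srsf11 had fold changes of -0.15 and -0.36 that did not pass the test. Without control replicate 3 the fold changes were -0.63 (Srsf2, adjusted p = 1.04e-07), -0.15 (Srsf5, adjusted p = 0.0708), -0.10 (Srsf9, adjusted p = 0.452) and -0.47 (Srsf11, adjusted p = 1.55e-05). No fit that left out another single library called Srsf2, Srsf5, Srsf9 or Srsf11.

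**Figure D4:**
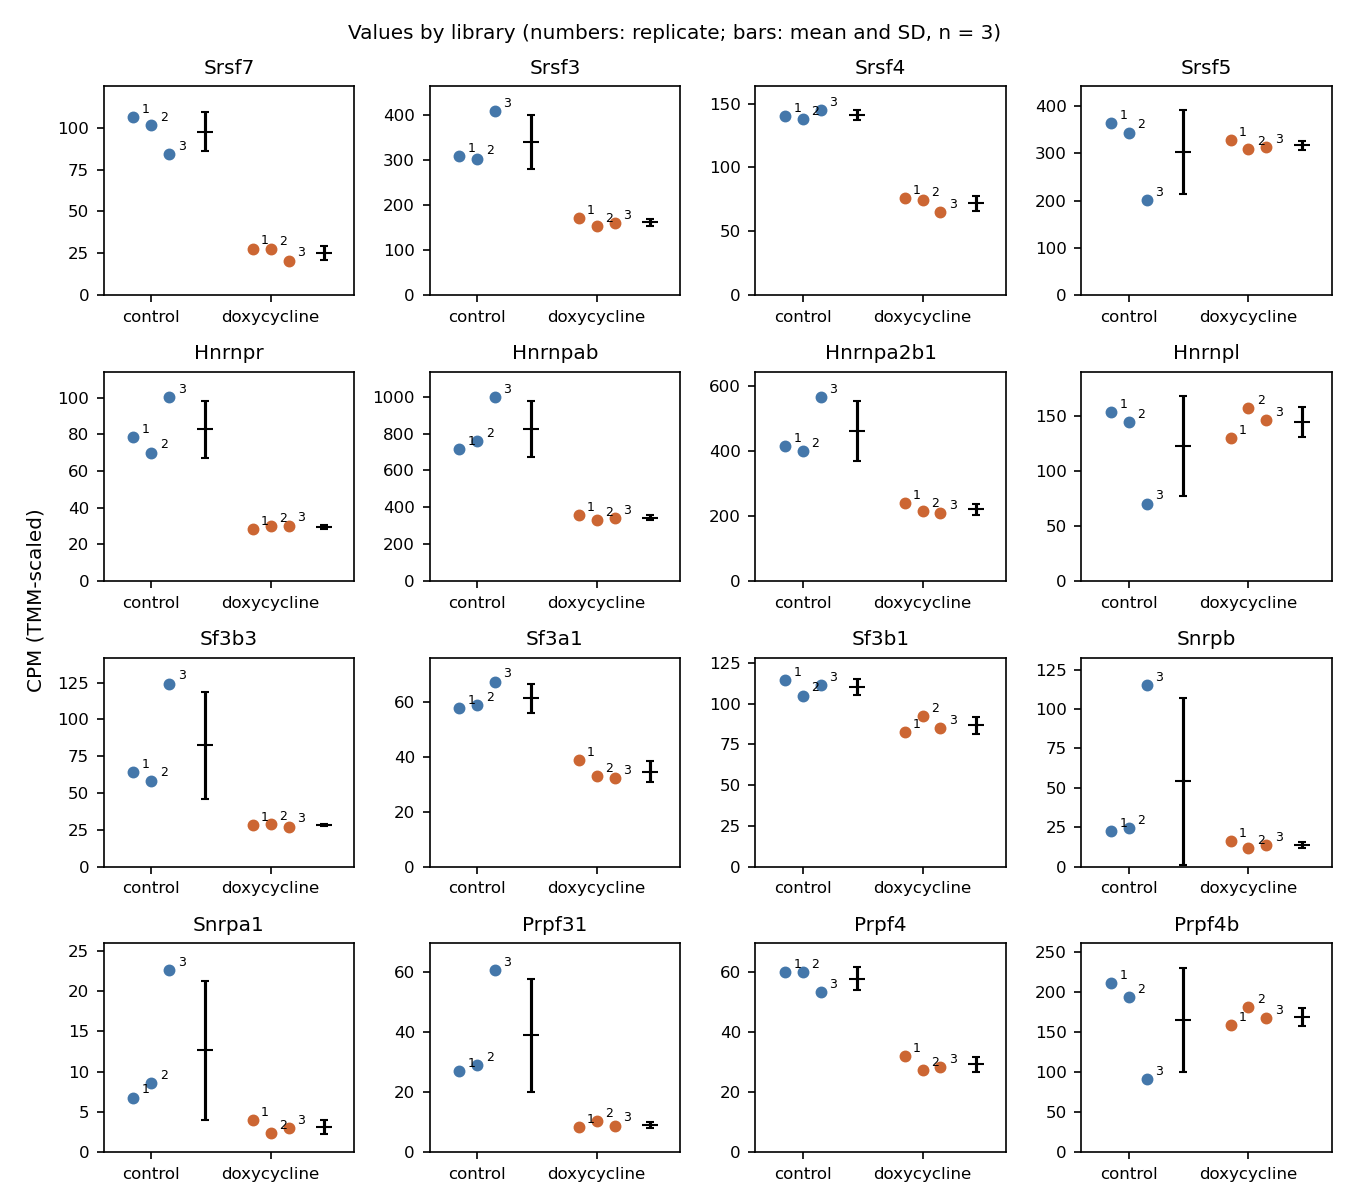
CPM of 16 splicing factor genes in each of the 6 libraries (linear axes from 0), points numbered by replicate with the mean and SD (n = 3) beside each group. Srsf7 lies between 84.3 and 106 CPM in the control and between 20.6 and 27.8 CPM in the doxycycline libraries.

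The hnRNPs coat nascent RNA and often repress the sites they cover. Of the 20 Hnrnp genes 11 fell, beside 23.6% of all genes tested, with a median of -0.70. Without control replicate 3, 17 fell, beside 35.1% of all genes. Leaving out another single library left 4 to 7 fallen, beside 14.3 to 20.5% of all genes. Hnrnpr stood at 78.4, 70.05 and 100.2 CPM in the control and 28.1, 29.7 and 30.2 CPM in the doxycycline libraries (log2 fold change -1.50, SE 0.182, edgeR adjusted p = 8.47e-04). Hnrnpab had the highest level of the family per kilobase over the mean of both groups, though in the doxycycline group Hnrnpa0 was higher (193 ± 8.17 CPM per kb, SD, n = 3). Hnrnpab was at 434 ± 79.8 and 180.1 ± 7.48 CPM per kb in the control and doxycycline groups (SD, n = 3), and stood at 717, 761 and 999 CPM in the control and 358, 329 and 341 CPM in the doxycycline libraries (log2 fold change -1.27, SE 0.182, edgeR adjusted p = 0.00163). In both genes the groups were well separated. Hnrnpa2b1, a reader of RNA sorting signals, stood at 415, 399 and 566 CPM in the control and 239, 214 and 207 CPM in the doxycycline libraries (log2 fold change -1.06, SE 0.191, edgeR adjusted p = 0.00423). Hnrnph3, a member of the group that binds runs of guanine, was low, at 16.7, 15.5 and 19.9 CPM in the control and 6.37, 8.14 and 9.26 CPM in the doxycycline libraries (log2 fold change -1.13, SE 0.224, edgeR adjusted p = 0.00615).

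The paralog of Hnrnpa2b1, Hnrnpa1, which antagonises SR proteins at many exons, stood at 209, 205 and 139 CPM in the control and 120.4, 99.2 and 94.5 CPM in the doxycycline libraries (log2 fold change -0.82, SE 0.214, edgeR adjusted p = 0.0193). Its call was lost without control replicate 1 or 2 or doxycycline replicate 2 or 3 (adjusted p 0.0566 to 0.0914). The other genes that fell were Hnrnpa0, Hnrnpd, Hnrnpf, Hnrnph1, Hnrnpm and Hnrnpu, listed after their values were seen. Their fold changes lay between -1.01 (Hnrnpa0) and -0.67 (Hnrnpf), and each lost its call without at least 1 library (adjusted p 0.0505 to 0.15). Hnrnpa0, Hnrnpd and Hnrnpu lost it without any 1 library other than control replicate 3. Hnrnpf and Hnrnph1 lost it without any 1 doxycycline library, and Hnrnpm only without doxycycline replicate 3. The paralogs Hnrnpl and Hnrnpll, known as regulators of exon skipping in lymphocytes, did not pass the test. Hnrnpl stood at 153, 144 and 70.4 CPM in the control and 130.1, 157 and 146 CPM in the doxycycline libraries, with a fold change of 0.23, and Hnrnpll at 86.9, 83.2 and 45.3 CPM in the control and 72.2, 78.5 and 88.9 CPM in the doxycycline libraries, with 0.15. In both, control replicate 3 was the lowest library, and without it the fold changes were -0.03 and -0.07. Hnrnpc, Hnrnpk, Hnrnpdl and Hnrnpul1 had fold changes of -0.66, -0.39, -0.39 and -0.22, and Hnrnpa3, Hnrnph2 and Hnrnpul2 of -0.02, 0.03 and 0.07, none past the test. Leaving out control replicate 3 gave -0.35 (Hnrnpc, adjusted p = 0.00131), -0.30 (Hnrnpk, adjusted p = 0.00165), -0.47 (Hnrnpdl, adjusted p = 3.13e-05) and -0.33 (Hnrnpul1, adjusted p = 8.58e-04). It also gave -0.15 (Hnrnpa3, adjusted p = 0.14), -0.20 (Hnrnph2, adjusted p = 0.043) and -0.27 (Hnrnpul2, adjusted p = 0.013). With any other single library left out, none of these Hnrnp genes that did not pass the test was called.

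The Snrp genes encode the Sm proteins, which form a ring around the RNA of a snRNP, and proteins particular to U1 or U2. Of the 10 genes 6 fell, beside 23.6% of all genes tested, with a median of -1.30. In all 10 every doxycycline library lay below every control library, which held for 31.3% of all genes. These values include Snrpg, whose fall the count rule favours. Leaving out control replicate 3, the median was -0.77 and 9 fell, beside 35.1% of all genes. Without doxycycline replicate 2 or 3 the count was 2 and 1, beside 14.3% of all genes in each case. Snrpg was the 1 left without doxycycline replicate 3, so none of the other Snrp genes fell in that fit. Snrpg, of the Sm ring, stood at 2.05, 1.23 and 1.41 CPM in the control and 0.405, 0.185 and 0.424 CPM in the doxycycline libraries (log2 fold change -2.17), on 4, 2 and 6 counts in the doxycycline libraries. The count rule admitted it through its control libraries alone, which favours a fall, so its difference is a description, and without it 5 of 9 Snrp genes fell. Snrpb2, of U2, stood at 13.6, 13.5 and 26.7 CPM in the control and 6.98, 6.66 and 5.37 CPM in the doxycycline libraries (log2 fold change -1.50, SE 0.329, edgeR adjusted p = 0.00989). Its call was lost without doxycycline replicate 3 (adjusted p = 0.0501). Snrpa, of U1, stood at 23.5, 29.02 and 44.4 CPM in the control and 17.1, 15.4 and 14.9 CPM in the doxycycline libraries (log2 fold change -1.03, SE 0.261, edgeR adjusted p = 0.0172), and lost its call without any 1 doxycycline library (adjusted p 0.0541 to 0.0742).

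Snrpa1 and Snrpb were both highest in control replicate 3. Snrpa1, of U2, stood at 6.78, 8.62 and 22.5 CPM in the control and 4.05, 2.41 and 3.04 CPM in the doxycycline libraries (log2 fold change -1.99, SE 0.511, edgeR adjusted p = 0.0181). With that library left out its fold change was -1.27 (adjusted p = 2.62e-04), and its call was lost without doxycycline replicate 2 or 3 (adjusted p 0.0703 to 0.0759). Snrpb, of the Sm ring and the highest of the family per kilobase at 46.6 ± 45.4 and 11.99 ± 1.74 CPM per kb (SD, n = 3), stood at 22.5, 24.7 and 115 CPM in the control and 15.98, 11.9 and 13.9 CPM in the doxycycline libraries (log2 fold change -1.95, SE 0.652, edgeR adjusted p = 0.0456). With the same library left out its fold change was -0.75 (adjusted p = 2.05e-04), and its call was lost without any 1 doxycycline library (adjusted p 0.115 to 0.143). Its paralog Snrpn was under the count limit, with 12, 2 and 1 counts in the control and 4, 9 and 18 in the doxycycline libraries, and reads shared by the pair could be split by the counting. Snrpd2, named after its values were seen, also fell, with a fold change of -1.11 (adjusted p = 0.0293), and lost its call without control replicate 1 or doxycycline replicate 2 or 3 (adjusted p 0.0617 to 0.104). Snrpc, Snrpd1, Snrpd3 and Snrpe had fold changes of -1.08, -1.74, -0.53 and -1.06 that did not pass the test. With control replicate 3 left out these were -0.79 (Snrpc, adjusted p = 0.0423), -0.76 (Snrpd1, adjusted p = 0.0142), -0.35 (Snrpd3, adjusted p = 0.135) and -0.75 (Snrpe, adjusted p = 0.03). Snrpd1 also passed without control replicate 1 or 2 (edgeR adjusted p = 0.0332 and 0.0445), and Snrpe without doxycycline replicate 1 (edgeR adjusted p = 0.0459). Snrpc and Snrpd3 passed without no other single library.

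**Figure D5:**
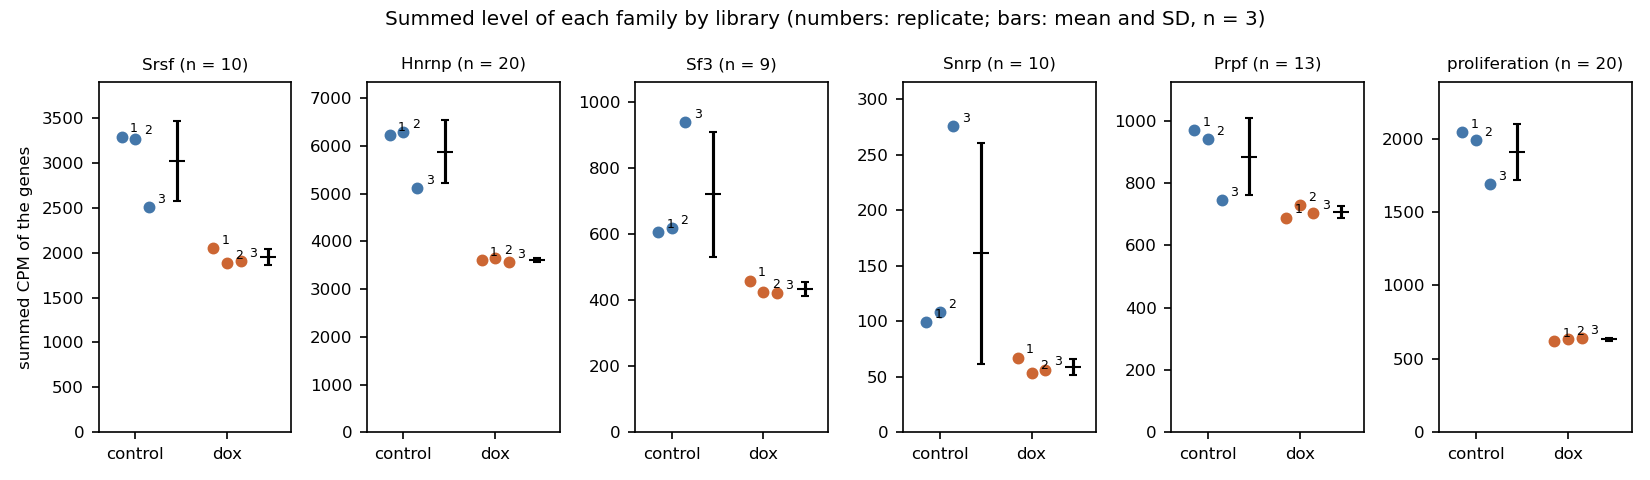
Summed CPM of the genes of each family, and of 20 proliferation genes, in each of the 6 libraries, with the mean and SD (n = 3) beside each group. The Srsf sum is 2509 to 3290 CPM in the control and 1882 to 2048 CPM in the doxycycline libraries, and the Snrp sum of control replicate 3, 276 CPM, is the highest of its family.

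SF3A and SF3B are the complexes through which U2 holds the branch point. Of the 9 Sf3 genes 4 fell, beside 23.6% of all genes tested, with a median of -0.72. They were 2 of 3 in SF3A and 2 of 6 in SF3B. With control replicate 3 left out, 7 fell, beside 35.1% of all genes, and the median was -0.44. Without any 1 doxycycline library 2 fell, beside 14.3 to 15.7% of all genes. Sf3b3 stood at 64.3, 58.4 and 124 CPM in the control and 28.5, 29.1 and 27.3 CPM in the doxycycline libraries (log2 fold change -1.54, SE 0.307, edgeR adjusted p = 0.00666), with control replicate 3 the highest, and without it the fold change was -1.11. Its span overlaps that of Cog4. Sf3a1 stood at 57.7, 58.8 and 67.4 CPM in the control and 38.9, 32.8 and 32.2 CPM in the doxycycline libraries (log2 fold change -0.82, SE 0.160, edgeR adjusted p = 0.00567), with its controls close together. Sf3a2 stood at 65.04, 66.7 and 126 CPM in the control and 47.2, 39.1 and 46.5 CPM in the doxycycline libraries (log2 fold change -0.95, SE 0.287, edgeR adjusted p = 0.0322). Its fold change was -0.56 without control replicate 3, and its call was lost without any 1 doxycycline library (adjusted p 0.0896 to 0.122).

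Sf3b5, a small SF3B subunit and the highest of the family per kilobase at 345 ± 107 and 212 ± 15.9 CPM per kb (SD, n = 3), stood at 197, 219 and 343 CPM in the control and 169, 151 and 147 CPM in the doxycycline libraries (log2 fold change -0.70, SE 0.238, edgeR adjusted p = 0.0485). Its call lay at the threshold and was lost in 9 of 14 alternatives, 4 of them with 1 library left out (adjusted p 0.0631 to 0.16). Its fold change without control replicate 3 was -0.41. Sf3b1, the scaffold of SF3B that is mutated in several blood disorders, stood at 114, 105 and 111 CPM in the control and 82.6, 92.2 and 84.9 CPM in the doxycycline libraries, with no overlap but a fold change of -0.35 that did not pass the test (adjusted p = 0.0822). Sf3b2, Sf3b4, Sf3b6 and Sf3a3 did not pass it either, with fold changes of -0.72, -0.44, -0.15 and -1.59. With control replicate 3 left out the fold changes were -0.33 (Sf3b1, adjusted p = 0.00202), -0.33 (Sf3b2, adjusted p = 0.00864), -0.44 (Sf3b4, adjusted p = 0.00554), -0.16 (Sf3b6, adjusted p = 0.308) and -0.55 (Sf3a3, adjusted p = 0.135). With another single library left out, only Sf3a3 of these passed, without control replicate 1 or 2 (edgeR adjusted p = 0.0428 and 0.0483).

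The Prpf genes are named for yeast mutants in pre-mRNA processing and cover several steps. Of the 13 genes 4 fell (30.8%, beside 23.6% of all genes tested), with a median of -0.44. Without control replicate 3 the count was 9, beside 35.1% of all genes. Prpf31, which holds U4/U6 and U5 together in the tri-snRNP and is mutated in a form of retinitis pigmentosa, stood at 27.1, 29.1 and 60.6 CPM in the control and 8.39, 10.4 and 8.90 CPM in the doxycycline libraries (log2 fold change -2.07, SE 0.349, edgeR adjusted p = 0.00339). Omitting control replicate 3, its highest library, the fold change was -1.59. Prpf4, of U4/U6, stood at 59.8, 59.96 and 53.3 CPM in the control and 32.1, 27.3 and 28.4 CPM in the doxycycline libraries (log2 fold change -0.98, SE 0.152, edgeR adjusted p = 0.00227), with no library apart. Prpf19, the ubiquitin ligase of the complex that activates the spliceosome, stood at 34.9, 36.02 and 64.4 CPM in the control and 17.9, 13.4 and 18.7 CPM in the doxycycline libraries (log2 fold change -1.43, SE 0.292, edgeR adjusted p = 0.0074), with -1.07 without control replicate 3. Prpf39, linked to U1, stood at 36.4, 43.3 and 46.2 CPM in the control and 20.7, 21.6 and 24.3 CPM in the doxycycline libraries (log2 fold change -0.92, SE 0.169, edgeR adjusted p = 0.00455). Its span overlaps that of Fkbp3.

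Prpf8, the core of U5, stood at 50.1, 48.5 and 46.5 CPM in the control and 29.1, 39.7 and 44.03 CPM in the doxycycline libraries, with a fold change of -0.36 that did not pass the test (adjusted p = 0.16), and -0.37 without control replicate 3 (adjusted p = 0.0229). Prpf38b had the highest level of the family per kilobase, 81.9 ± 23.97 and 76.9 ± 2.28 CPM per kb (SD, n = 3). It stood at 301, 277 and 165 CPM in the control and 230.5, 241 and 227 CPM in the doxycycline libraries, with control replicate 3 the lowest, and a fold change of -0.09, or -0.30 without that library (adjusted p = 0.00136). Its paralog Prpf38a stood at 8.95, 10.01 and 20.7 CPM in the control and 10.2, 9.72 and 9.12 CPM in the doxycycline libraries, with control replicate 3 the highest, and a fold change of -0.44, or 0.04 without that library. Neither passed the test with all libraries. Prpf40b stood at 3.22, 1.92 and 5.13 CPM in the control and 3.94, 5.92 and 4.59 CPM in the doxycycline libraries (fold change 0.51, adjusted p = 0.33). Without control replicate 3 it rose, at 0.90 (adjusted p = 0.0162). A difference between the members of a pair was not tested. Prpf3 and Prpf6, of the tri-snRNP, had fold changes of -0.78 and -0.89, and Prpf18 and the kinase gene Prpf4b of -0.23 and 0.03, none past the test. Leaving out control replicate 3 gave -0.40 (Prpf3, adjusted p = 0.0585), -0.28 (Prpf6, adjusted p = 0.363), -0.29 (Prpf18, adjusted p = 0.013) and -0.25 (Prpf4b, adjusted p = 0.0107). No Prpf gene from Prpf8 to Prpf4b in this account was called with any other single library left out.

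Other genes were described from 6 lists set beside the families, 1 of which held proliferation genes, with means ± SD over 3 libraries. Of 69 spliceosome components outside the families, 32 fell and none rose, beside 23.6% and 21.7% of all genes tested. Their median was -0.71. Among them U2af1, which reads the 3′ end of the intron, went from 29.1 ± 0.789 to 12.4 ± 0.986 CPM (log2 fold change -1.23, SE 0.162, edgeR adjusted p = 0.00114), and Lsm6, of the ring on U6, fell as well (log2 fold change -1.37, SE 0.169, edgeR adjusted p = 8.97e-04). Bcas2, of the Prpf19 complex, went from 45.02 ± 7.89 to 18.3 ± 0.512 CPM, and Sart3, which recycles U6, from 62.5 ± 4.17 to 36.2 ± 0.926 CPM (edgeR adjusted p = 0.00147 and 0.00425). Of 19 genes of snRNP assembly, which load the Sm ring, 9 fell and none rose, beside the same shares of all genes. Their median was -1.25. Wdr77, partner of the methylase of Sm proteins, went from 119 ± 6.17 to 36.9 ± 6.51 CPM (log2 fold change -1.69, SE 0.178, edgeR adjusted p = 4.74e-04). Ddx20 and Gemin5, of the SMN complex, went from 47.3 ± 4.88 to 18.5 ± 1.53 CPM and from 37.1 ± 3.47 to 15.6 ± 2.31 CPM, and the cap-binding gene Ncbp2 from 41.8 ± 5.94 to 15.3 ± 2.44 CPM.

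Of 23 SR-related proteins, SR kinases and import genes tested, 7 fell (30.4%, beside 23.6% of all genes tested). None rose, beside 21.7% of all genes, and the median was -0.36. Tra2b, an SR-like exon activator, went from 142 ± 49.4 to 70.5 ± 2.76 CPM (edgeR adjusted p = 0.0168), and Srek1, Srrm1 and Rsrc1 fell with fold changes of -0.89, -0.75 and -0.64. The fold change of Tra2b was -0.67 without control replicate 3. All 4 calls were lost without at least 1 library (adjusted p 0.051 to 0.0875). Of 18 genes of the exon junction complex and nonsense-mediated decay, 6 fell (33.3%, beside 23.6% of all genes tested). In this list 1 rose, beside 21.7% of all genes, and the median was -0.54. Acin1 and Rnps1, which sit on the junction complex, went from 303 ± 11.4 to 167 ± 8.22 CPM and from 54.5 ± 17.5 to 25.05 ± 4.50 CPM, and the decay factors Upf1 and Upf3b fell with fold changes of -0.64 and -1.22. The calls of Rnps1 and Upf1 were lost without doxycycline replicate 2 or 3, and that of Upf1 also without doxycycline replicate 1 (adjusted p 0.0595 to 0.0664).

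Of 41 regulators of alternative splicing tested, 18 fell and 6 rose, beside 23.6% and 21.7% of all genes tested. The median was -0.55, and with total counts as the scaling 3 rose, beside 13.5% of all genes. Celf5 rose from 3.60 ± 1.57 to 67.6 ± 4.28 CPM (log2 fold change 4.20, SE 0.339, edgeR adjusted p = 2.02e-04). Mbnl2, a regulator of developmental splicing and named after its values were seen, rose from 189.6 ± 61.5 to 601 ± 63.2 CPM (log2 fold change 1.66, SE 0.277, edgeR adjusted p = 0.00325). Rbmx, Tia1 and Ewsr1 fell, from 84.3 ± 4.83 to 28.7 ± 4.79 CPM, from 87.3 ± 15.4 to 34.6 ± 0.448 CPM and from 87.4 ± 2.96 to 42.7 ± 4.62 CPM (edgeR adjusted p = 6.08e-04, 0.00121 and 0.00178). The epithelial splicing regulators Esrp1 and Esrp2, also named after their values were seen, stood at 174 ± 2.32 and 147 ± 5.53 CPM and at 108 ± 7.43 and 112 ± 6.24 CPM in the control and doxycycline groups and did not pass the test (adjusted p = 0.192 and 0.788).

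Proliferation genes moved with the families: 17 of 20 fell and none rose, beside 23.6% and 21.7% of all genes tested, with a median of -2.07. Their summed level went from 2042, 1992 and 1693 CPM in the control to 623, 636 and 644 CPM in the doxycycline libraries. Their part in the fall of the splicing factor genes was not tested. In bulk samples, fewer cells of a type and less RNA per cell cannot be told apart. Transcript length had a Spearman rho of 0.25 with the fold change across the 62 genes and 0.15 across all genes tested with a length, a description over genes that share libraries. Of the 62 genes, 21 overlap another RefSeq gene, and no source used here states whether counting used strand, so reads of such neighbours cannot be told apart. Among the genes that fell, those with such an overlap are Srsf4, Hnrnpab, Hnrnpd, Hnrnpf, Hnrnph3, Hnrnpu, Snrpa, Sf3b3, Prpf31 and Prpf39.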

How the data were processed

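The authors deposited a table of whole-number read counts per Entrez gene for 6 libraries. A spin-column kit gave the RNA, TruSeq RNA the libraries and a NextSeq the reads, per the labels' protocols. The submitters' processing notes name mm10. The aligner, counter, annotation and use of strand are not given in the sources used here. Symbols, positions and promoters came from RefSeq (GRCm38.p6), which named 24570 of 24594 IDs.

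These counts entered edgeR 4.0.16 under R 4.3.3: expression filter by group, TMM scaling, robust quasi-likelihood test, Benjamini-Hochberg adjustment, threshold 0.05. CPM use TMM-scaled library sizes and are given per library or as mean ± SD (n = 3). CPM per kb divide by the median transcript length. The scripts were tested on simulated counts. The genes and lists were chosen with earlier results of these data known. In each family the text names up to 4 fallen genes of smallest adjusted p and the highest per kb; over all families the 8 largest falls and rises of at least 5 CPM; 5 paralog pairs; and up to 4 genes of each list. Alternatives were RLE and total-count scaling, other filters, DESeq2 1.42.0, limma-voom (limma 3.58.1), a replicate block, removal of a length trend, each library left out and a threshold of 0.01. The libraries are the samples the labels number, and p-values measure the spread between them. A few genes entered the fits and counts but are not reported here by name.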

Additional observations from a re-analysis of the deposited data

How the results depend on the processing

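Of the 62 genes, 31 fell with all libraries, against 23.6% of all genes tested. With RLE factors, no filter and a filter of 10 counts in 3 libraries, 30, 30 and 31 fell, against 23, 16.9 and 23.5%. With DESeq2, limma-voom and a length trend removed, 40, 30 and 32 fell, against 26.8, 22.8 and 25.3%. With total counts 52 fell, against 39.7%, with a median of -1.24. At a threshold of 0.01, 17 fell, against 13.1%. Leaving out 1 library left 15 to 50 fallen, against 14.3 to 35.1% of all genes, with medians of -0.85 to -0.64. It left 0 to 1 risen, the 1 without control replicate 3, where 34.9% of all genes rose. The cause was not tested. Whether the replicate numbers pair the libraries is not given in the labels. Deviations of same-numbered libraries correlated at -0.299, 0.119 and -0.187. These cannot decide it, because deviations from a mean of 3 libraries depend on one another. With the replicate block 24 fell, against 17.4% of all genes, and none rose. The median stayed below 0 in each of these fits, and so did that of all genes tested (-0.52 to -0.02). The distance of the splicing factor median from that of all genes was -0.77 to -0.61. A change of scaling alone could hardly move this distance.

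Some genes that did not pass the test changed sign, and without control replicate 3 the turned sign passed the threshold for Hnrnph2, Hnrnpul2 and Prpf4b, at -0.20, -0.27 and -0.25 (edgeR adjusted p = 0.043, 0.013 and 0.0107). With total counts as the scaling the fold changes were -0.41 (Hnrnph2), -0.21 (Hnrnpl), -0.29 (Hnrnpll), -0.37 (Hnrnpul2), -0.41 (Prpf4b), -0.38 (Srsf5). With the length trend removed the fold changes were 0.0686 (Hnrnpa3), -0.12 (Prpf4b), 0.053 (Sf3b6), 0.0655 (Srsf9). Leaving out 1 library gave fold changes of -0.15 to 0.0816 for Hnrnpa3, -0.20 to 0.21 for Hnrnph2, -0.0292 to 0.43 for Hnrnpl, -0.0746 to 0.32 for Hnrnpll, -0.27 to 0.30 for Hnrnpul2, -0.66 to 0.0447 for Prpf38a, -0.30 to 0.077 for Prpf38b, -0.25 to 0.25 for Prpf4b, -0.15 to 0.22 for Srsf5. Depth limits Snrpg most, at 2 to 6 counts in a doxycycline library.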
